A study of Mus musculus with 33 samples.

Results

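The cadherins and protocadherins are the cell surface proteins examined here in a mouse embryonic stem cell culture that was taken through paraxial mesoderm into a tendon or a fibrocartilage condition. Members were defined by name, with earlier results of these data known. They were every gene whose symbol is Cdh followed by digits, or begins with Pcdh, with the exception of the endothelial gene Cdh5. The count table held 65 such genes among 17120, of which 18 were Cdh genes, 11 were non-clustered protocadherins, 15 belonged to the Pcdhb cluster and 21 to the Pcdhg cluster. The mouse annotation (GENCODE M21) lists 92 genes under the same rule. The other 27, among them all 14 Pcdha genes, 7 Pcdhb genes and Cdh7, Cdh12, Cdh16, Cdh17 and Pcdh20, were not analysed here. The table had already been filtered on low counts, so a gene could enter it through the groups in which it was high, and the counts below describe these 65 genes and not the whole family.

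RNA was sequenced from 33 cultures in 11 groups of 3 replicates, all made from mouse embryonic stem cells carrying the ScxGFP tendon reporter. Cells were grown as embryoid bodies with the BMP receptor inhibitor LDN-193189 and then with LDN-193189 plus the Wnt activator CHIR, and the paraxial mesoderm (PM) group was collected as embryoid bodies on day 6 (D6). The study also describes this stage with AGN 193109 or retinoic acid added to CHIR. The labels give no such agent for PM, and whether any reached it was not settled by them. All other groups were monolayers given TGFβ1, the hedgehog agonist SAG and FGF2 together with a retinoid. CD1530, which activates the receptor RARγ, made the tendon condition, and AGN 193109, which as an inverse agonist holds retinoic acid receptors in their repressive state, made the fibrocartilage condition. Monolayers were harvested 5 times per condition, on day 6 (D6.25 and D6.75), once more at D7.5 and D8.5, and for the last time at D10. No group received the growth factors without a retinoid ligand, so a difference between the conditions cannot be assigned to one ligand. The bulk cultures were not sorted, and fewer cells of a type and less RNA per cell cannot be told apart in them. The labels call the replicates separate samples without saying whether they came from separate stem cell lines, so p-values measure only the spread between these samples.

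Cadherins hold cells together by calcium-dependent binding between like molecules on neighbouring cells. Classical cadherins of type I (E-, N-, P-, R- and M-cadherin) and type II (such as cadherin-11) bind catenins inside the cell, which link them to actin at adherens junctions. Exchange of E-cadherin for N-cadherin accompanies the passage of epithelial cells to a mesenchymal state, as at gastrulation, and N-cadherin and cadherin-11 are the best known cadherins of skeletal mesenchyme. Protocadherins do not bind the classical catenins. The delta-1 and delta-2 protocadherins are single genes with roles in cell sorting and guidance, Pcdh8 being known from the segmenting paraxial mesoderm, whereas the Pcdhb and Pcdhg genes lie in tandem arrays from which cells, best studied in neurons, choose promoters one by one. Pcdhg transcripts share 3′ constant exons and Pcdhb genes are close paralogs. How reads shared between such genes were counted is not given in the sources used here, so values for single clustered genes are uncertain.

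Libraries held between 17116084 and 22775275 counts, apart from 1 library of 38120841 (AGN 193109 at D8.5, replicate 1). Levels are CPM, counts scaled to 1000000 per library after TMM, and a level is set against that of another gene as CPM per kilobase of exon. The ratio of Cdh1 to Cdh2 and the share of Pcdhgc3 in its cluster are exceptions, taken from counts without correction for length. In the library of CD1530 at D6.75, replicate 1, 46 of the 65 members were at the lowest of the 3 replicates, against 9 to 38 in the other 32 libraries, and its summed Pcdhg level was 122.3 CPM beside 163.9 and 164.3 CPM in its replicates. Member calls at D6.75 were therefore also made without it. Those of Pcdhgc4 and Pcdhgc5 were then lost, that of Pcdh19 was gained, and the others were kept. Levels, sums and fold changes at D6.75 include this library unless stated. The PM libraries carried the pluripotency markers at a summed 2456 ± 67.4 CPM (SD, n = 3), against 196.1 ± 4.58 CPM with CD1530 and 365.4 ± 8.91 CPM with AGN 193109 at D10, and 6 paraxial mesoderm markers at 108.2 ± 4.47 CPM. Intervals and floors of low counts cover counting error only, since reads without molecular identifiers are not independent molecules.

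A single cadherin dominated each end of the time course. In PM, Cdh1 (E-cadherin) stood at 94.3 CPM per kilobase, ahead of Cdh3 at 14.6 and Cdh11 at 6.12 CPM per kilobase. At D10, Cdh11, the mesenchymal cadherin, led with 132.1 CPM per kilobase in CD1530 and 144.8 in AGN 193109. In CD1530 it was followed by Pcdh18 at 28.7, Pcdhgc3 at 19.3, Cdh1 at 17.2 and Cdh2 (N-cadherin) at 14.7 CPM per kilobase. In AGN 193109 Cdh1 at 37.8 came next, then Pcdh18 at 31.7, Pcdhgc3 at 16.8, Cdh3 at 16.2, Cdh24 at 11.2 and Cdh2 at 10.4 CPM per kilobase. Of the 65 members, 42 had their highest group mean at D10, 37 of them in AGN 193109 and 5 in CD1530. Only 1, Cdh1, was highest in PM. The matching shares over all genes were not counted, so these counts do not set the members apart from other genes. At the low end, 10 members stayed under a group mean of 2 CPM in every group.

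The first comparison asked what changed in the 6 hours between PM and D6.25. In CD1530, 54 of 65 members rose and 2 fell (edgeR quasi-likelihood test, Benjamini-Hochberg adjusted p under 0.05), where 34.5% and 33.3% of all genes did so. In AGN 193109, 51 rose and 2 fell, against 35.0% and 33.1% of all genes. The median log2 fold change over the members was 1.79 and 1.81, beside 0.00 and 0.00 over all genes. A member scarce in PM could enter the table only through later groups, so for such genes the filter favours rises over falls. Cdh11 rose from 55.9, 57.4 and 50.1 CPM in PM to 315.6, 329.9 and 334.4 CPM in CD1530 (log2 fold change 2.58, SE 0.05, adjusted p = 8.34e-36) and to 290.7, 277.8 and 286.6 CPM in AGN 193109 (2.39, SE 0.05, adjusted p = 1.21e-34). Cdh2 rose from 34.4, 31.6 and 31.7 CPM to 177.0, 185.1 and 182.0 CPM in CD1530 (2.48, SE 0.05, adjusted p = 6.33e-34). The 2 members that fell were Cdh1, by 0.59 in CD1530 and by 0.42 in AGN 193109 on the log2 scale, and Cdh3 (P-cadherin), by 0.25 and by 0.16. The ratio of Cdh1 to Cdh2 counts, not corrected for their exon lengths of 4574 and 8066 bp, was 13.3 ± 0.168 in PM. At D6.25 it was 1.58 ± 0.0326 with CD1530 and 1.71 ± 0.0558 with AGN 193109 (SD, n = 3). Both conditions were compared with the same PM libraries. Any move from embryoid body to monolayer, the change of medium, any retinoid agent given before plating and the elapsed time cannot be told apart.

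From D6.25 to D10, 44 members rose and 9 fell in CD1530, against 37.2% and 38.2% of all genes, and 48 rose and 10 fell in AGN 193109, against 36.0% and 38.6% of all genes. Median log2 fold changes were 0.85 and 1.19 over the members and -0.02 and -0.04 over all genes. Those that fell in both conditions were Cdh1, Cdh2, Cdh13, Cdh15, Cdh20, Pcdh7, Pcdh10 and Pcdh12. Cdh1 fell by 1.87 on the log2 scale (SE 0.04) in CD1530 and by 0.90 (SE 0.04) in AGN 193109, and Cdh2 fell by 0.61 (SE 0.05) and by 1.16 (SE 0.05). Cdh3 fell by 0.65 in CD1530 and rose by 0.31 in AGN 193109 (adjusted p = 5.13e-14 and 8.15e-07). Scaling by library size alone shifted the all-gene median to -0.188 in CD1530 and -0.244 in AGN 193109 and gave 5158 genes higher and 8125 lower in CD1530 (6362 and 6533 with TMM), and 4736 and 8488 in AGN 193109 (6160 and 6600).

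The comparison of main interest set CD1530 against AGN 193109 at each time. Few members differed early. At D6.25, 1 of 65 was higher with CD1530 and 2 were lower, against 1.23% and 0.695% of all genes. At D6.75, 3 were higher and 7 lower (7.94% and 10.0% of all genes), or 4 and 5 without the library named above, and 1 and 4 with only the compared groups in the model. At D7.5, 5 were higher and 7 lower (15.2% and 11.8%), or 3 and 7 with DESeq2, with its size factors or with library size alone. At D8.5, no member was higher and 18 were lower with CD1530, where 20.4% and 19.6% of all genes were. At D10, 8 were higher and 28 lower, which is 12.3% and 43.1% of the members, beside 22.7% and 24.0% of all genes. The median log2 fold change over the members was -0.23 at D8.5 and -0.29 at D10, and 0.00 and -0.02 over all genes. Whether the difference between conditions was the same at all 5 times was tested by an interaction, which was called for 26 members (40.0%), against 48.8% of all genes.

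**Figure D1:**
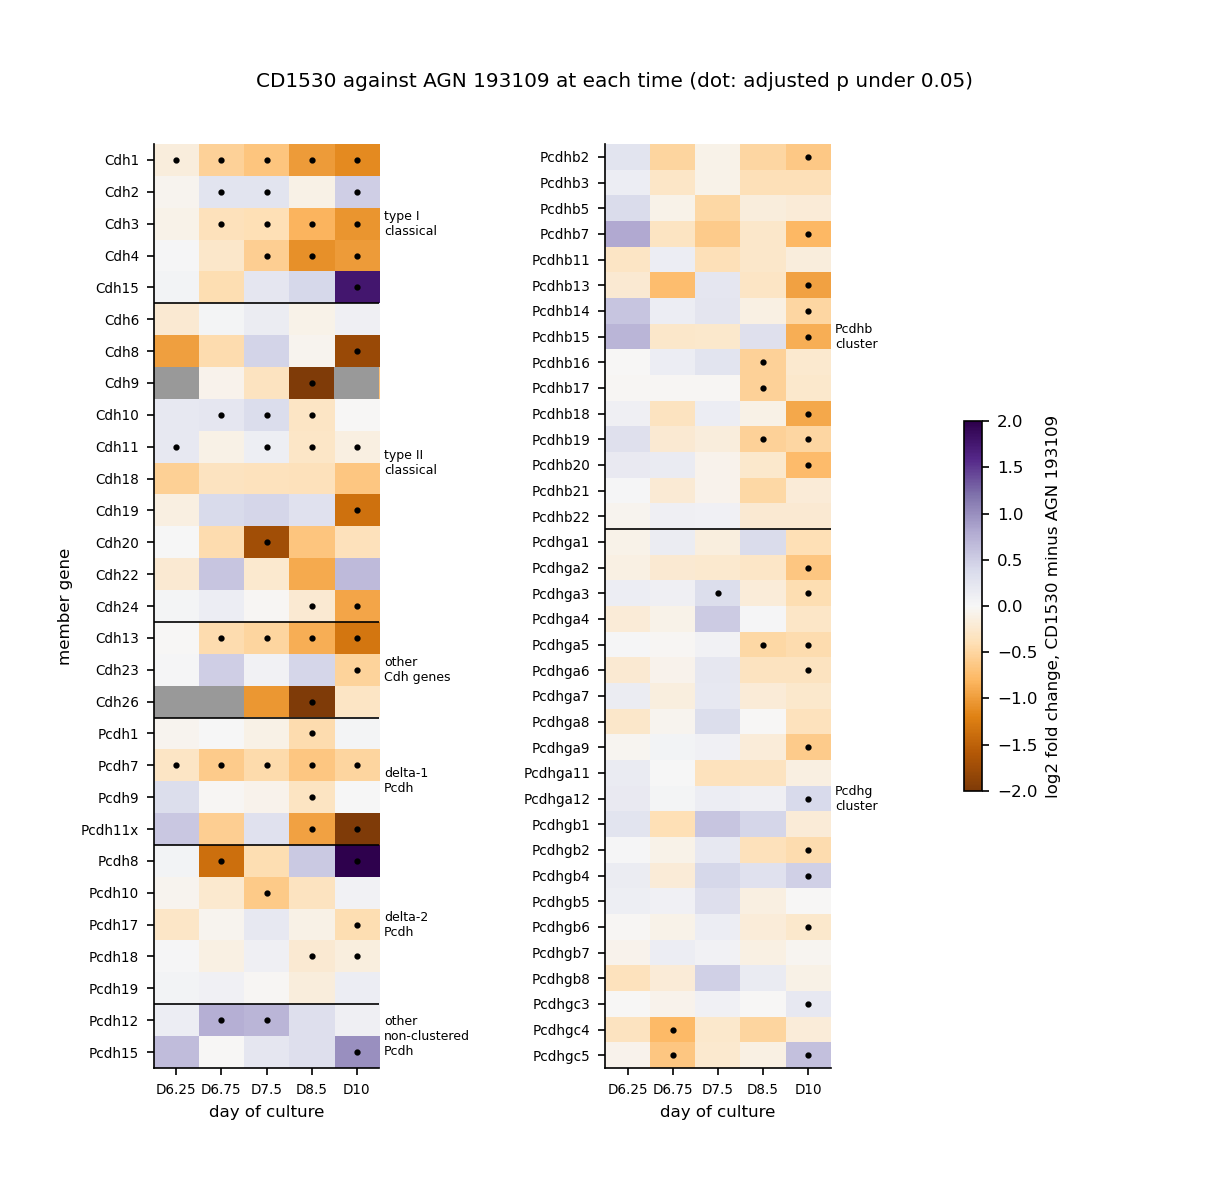
Log2 fold change of CD1530 minus AGN 193109 (colour, which stops at 2 in either direction) for each of the 65 members (rows) at the 5 times from D6.25 to D10 (columns), from 3 libraries per group, with a dot where the adjusted p was under 0.05 and grey where both groups lay at or under 3 counts in every library. Dots are sparse at D6.25, with 3 members, and cover 36 members at D10, 28 of them on the side lower with CD1530.

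Type I cadherins showed the clearest divergence, and all 5 were called at D10, beside 22.7% of all genes higher and 24.0% lower. With CD1530, Cdh2 and Cdh15 were higher and Cdh1, Cdh3 and Cdh4 lower. Cdh1 (chr8:106603351-106670246, GRCm38) measured 77.6, 78.3 and 79.7 CPM with CD1530 at D10 and 170.5, 174.7 and 173.4 CPM with AGN 193109. The groups were far apart compared with their spread, a 2.20-fold lower level with CD1530 (log2 fold change -1.14, SE 0.04, adjusted p = 1.06e-24). The gap was larger at each later time. It was -0.16 at D6.25 (SE 0.04, adjusted p = 0.0132), -0.53 at D6.75 (SE 0.04, adjusted p = 3.69e-14), -0.67 at D7.5 (SE 0.04, adjusted p = 1.73e-17) and -1.01 at D8.5 (SE 0.04, adjusted p = 1.33e-23). The call at D6.25 was lost when any 1 of 4 of its 6 libraries was left out, both first and second replicates, with adjusted p up to 0.0728. In AGN 193109, Cdh1 measured 325.1, 322.2 and 318.7 CPM at D6.25 and 390.5, 380.1 and 399.8 CPM at D6.75, each later library above each earlier one.

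Cdh3, which lies 46054 bp upstream of Cdh1 on chromosome 8 (chr8:106510891-106557297), showed the same order at D10, with 34.1, 35.8 and 33.1 CPM with CD1530 and 71.2, 75.9 and 66.2 CPM with AGN 193109 (-1.05, SE 0.05, adjusted p = 5.13e-20). Its difference at D6.25 was not called, and at D6.75, D7.5 and D8.5 it was -0.36, -0.41 and -0.81 (SE 0.05 at each). Cdh4 (R-cadherin) rose from D6.25 to D10 in both conditions, by 1.05 on the log2 scale with CD1530 and by 2.08 with AGN 193109, reaching 14.2, 15.4 and 15.2 CPM with CD1530 and 29.8, 29.4 and 30.4 CPM with AGN 193109 at D10 (-1.001, SE 0.08, adjusted p = 3.07e-13).

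Cdh2 went the other way. At D10 it measured 119.5, 119.9 and 116.2 CPM with CD1530 and 84.2, 85.6 and 82.0 CPM with AGN 193109 (0.50, SE 0.05, adjusted p = 2.12e-11). It was also higher with CD1530 at D6.75 (0.26, SE 0.05, adjusted p = 4.84e-05) and at D7.5 (0.26, SE 0.05, adjusted p = 2.86e-05), but was not called at D8.5, where AGN 193109 held 111.2, 108.6 and 110.7 CPM and CD1530 101.1, 100.7 and 106.2 CPM, although with only the compared groups in the model it was called lower there (-0.106, adjusted p = 0.0184). The call at D6.75 was lost when the model held only the compared groups (adjusted p = 0.0659). The ratio of Cdh1 to Cdh2 counts at D10 was 0.663 ± 0.0201 with CD1530 and 2.06 ± 0.0475 with AGN 193109 (SD, n = 3). It is not corrected for exon length, and per kilobase Cdh1 was still above Cdh2 with CD1530 at D10, as given above. In the earlier monolayer groups it lay between 1.43 and 1.72 with CD1530 and between 1.71 and 3.24 with AGN 193109. Cdh15, the M-cadherin of muscle precursors, was rare, at 1.16, 0.991 and 1.80 CPM with CD1530 and 0.313, 0.241 and 0.594 CPM with AGN 193109 at D10 (1.75, SE 0.37, adjusted p = 1.18e-04).

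Epithelial markers other than the cadherins were mostly lower with CD1530, as Cdh1 was, during the middle of the course. All 10 were lower with CD1530 at D7.5, 8 at D6.75 and 7 at D8.5, beside 11.8%, 10.0% and 19.6% of all genes. The sum of their levels at D7.5 was 723.3 ± 7.91 CPM with CD1530 and 1104 ± 33.9 CPM with AGN 193109. At D10, 5 were lower and 4 higher, with sums of 327.8 ± 7.01 and 356.6 ± 3.32 CPM. Of all genes, 24.0% were lower and 22.7% higher at D10. Epcam, an epithelial adhesion molecule, was at 42.7 and 92.0 CPM at D10 (-1.11, adjusted p = 7.09e-24) and Krt8, a simple epithelial keratin, at 55.2 and 42.3 CPM (0.38, adjusted p = 7.31e-09). Of 6 pluripotency markers, which go with E-cadherin in stem cells, 2 were higher and 3 lower with CD1530 at D10 (median -0.21). Pou5f1 was at 26.6 CPM with CD1530 and 149.3 CPM with AGN 193109, and Nanog at 46.1 and 35.2 CPM. Neural markers, which go with N-cadherin, summed to 213.7 ± 5.61 CPM with CD1530 and 126.9 ± 0.768 CPM with AGN 193109, and 8 of 10 were higher with CD1530. The part of these cells in the cadherin values was not tested.

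**Figure D2:**
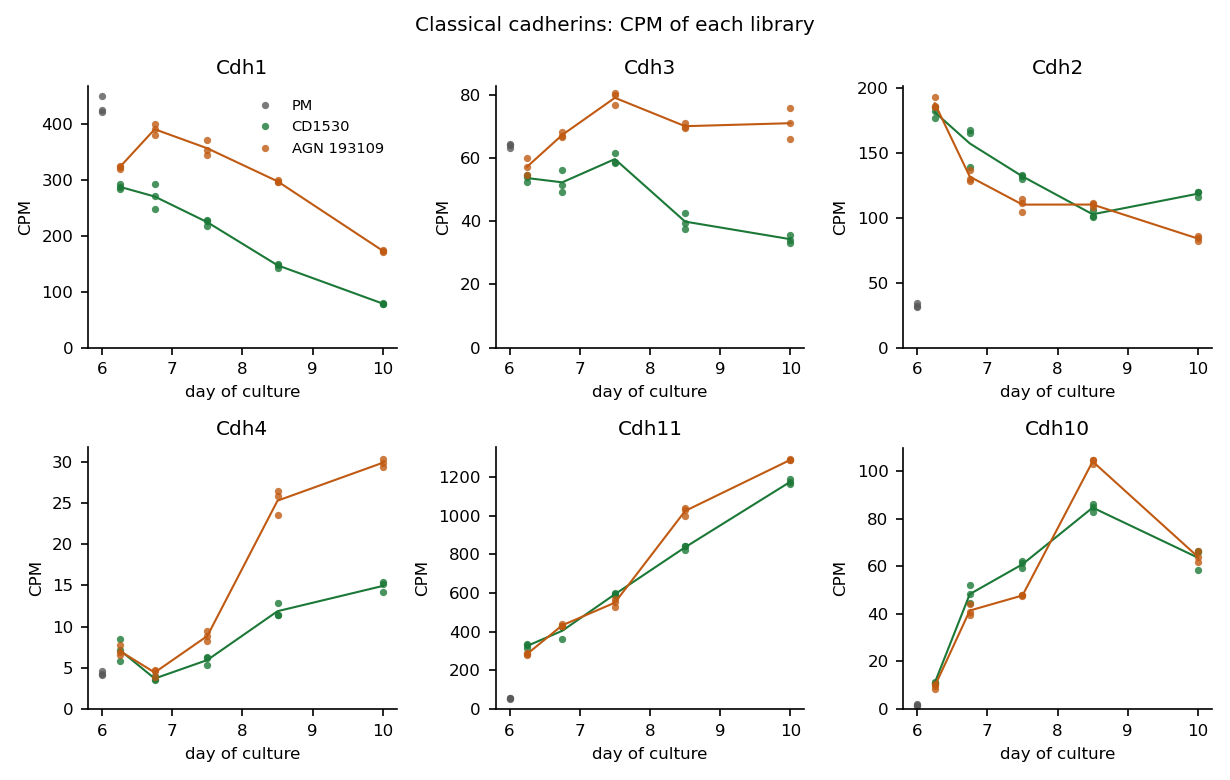
CPM (vertical axis, linear from 0) of named classical and related cadherins against day of culture, 1 point per library and lines through the means of 3 libraries, with PM at D6 and CD1530 and AGN 193109 in separate colours. Cdh1 declines from 420.3 to 448.8 CPM in PM to between 77.6 and 79.7 CPM with CD1530 and between 170.5 and 174.7 CPM with AGN 193109 at D10, whereas Cdh11 climbs to between 1163 and 1291 CPM in both.

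Type II cadherins were carried by Cdh11, and the sum over the 10 genes was 69.5 ± 3.05 CPM in PM. At D10 it was 1298 ± 21.8 CPM with CD1530 and 1429 ± 4.46 CPM with AGN 193109. None was higher with CD1530 at D8.5 or D10, and 4 were lower at each time. For Cdh11 the difference was small beside its rise. Libraries at D10 measured 1175, 1163 and 1190 CPM with CD1530 and 1291, 1287 and 1290 CPM with AGN 193109 (-0.13, SE 0.04, adjusted p = 7.79e-03), and at D8.5 the difference was -0.29 (SE 0.04, adjusted p = 2.38e-07). At D6.25 the order was reversed (0.20, SE 0.04, adjusted p = 0.0054), though this call was lost without AGN 193109 replicate 2 (adjusted p = 0.0552) or CD1530 replicate 3 (adjusted p = 0.0506). A difference of 0.11 at D7.5 (adjusted p = 0.0480) did not hold with DESeq2 (adjusted p = 0.106) or without any 1 of 5 of the 6 libraries (adjusted p up to 0.225).

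Cdh24, a type II cadherin that binds catenins, had the lowest adjusted p of the type II genes at D10. It measured 21.3, 17.3 and 22.9 CPM with CD1530 and 38.9, 41.1 and 37.0 CPM with AGN 193109 (-0.93, SE 0.08, adjusted p = 7.34e-13), and its difference at D8.5 had been -0.23 (SE 0.08, adjusted p = 0.0241, and up to 0.0834 without 1 library). Cdh10 crossed over. It was higher with CD1530 at D6.75 (0.22, SE 0.06, adjusted p = 0.00504, or 0.0556 without CD1530 replicate 2 and 0.122 with only the compared groups in the model) and at D7.5 (0.35, SE 0.06, adjusted p = 5.13e-06), lower at D8.5 (-0.30, SE 0.05, adjusted p = 1.40e-05), and at D10 its libraries overlapped at 65.9, 58.6 and 66.3 CPM with CD1530 and 66.3, 63.7 and 61.8 CPM with AGN 193109. Cdh6, a cadherin of kidney and neural crest, lay between 3.54 and 4.21 CPM in PM and between 30.5 and 36.6 CPM at D10, and was not called between them at any time.

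The scarce type II genes are given by their counts. Cdh8 had 4, 11 and 7 counts with CD1530 and 23, 28 and 17 with AGN 193109 at D10 (-1.78, SE 0.40, adjusted p = 2.38e-04). Cdh9 passed through a peak at D7.5, with 14, 27 and 21 counts in CD1530 and 28, 22 and 24 in AGN 193109, and at D8.5 it held 5, 0 and 3 counts against 25, 8 and 18 (-2.14, SE 0.56, adjusted p = 0.00216). The 25 counts come from the deepest library, and in CPM the D8.5 values were 0.279, 0 and 0.177 against 0.677, 0.408 and 0.953. Cdh20 was called at D7.5 on 1, 4 and 3 counts against 8, 10 and 8 (-1.73, SE 0.58, adjusted p = 0.0211, and up to 0.0882 without 1 library), and Cdh19 at D10 with overlapping groups (-1.35, SE 0.55, adjusted p = 0.0402, and up to 0.211). Cdh18 and Cdh22 were not called between conditions at any time, although Cdh22 was called lower at D8.5 with only the compared groups in the model (-0.895, adjusted p = 0.0349) and higher at D10 without AGN 193109 replicate 2 (1.388, adjusted p = 0.0203).

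Of the other Cdh genes, Cdh13, the T-cadherin that is anchored to the membrane by a lipid and lacks a cytoplasmic domain, diverged steadily. Its log2 fold change was -0.42 at D6.75 (SE 0.11), -0.51 at D7.5 (SE 0.13), -0.87 at D8.5 (SE 0.14) and -1.31 at D10 (SE 0.15, adjusted p = 1.01e-09), where libraries measured 2.73, 2.81 and 3.15 CPM with CD1530 and 6.63, 6.99 and 7.90 CPM with AGN 193109. The groups did not overlap at any of these times, although the call at D6.75 was lost with only the compared groups in the model (adjusted p = 0.0692). Cdh23, a component of the tip links of hair cells, rose by 2.41 and 2.97 on the log2 scale from D6.25 to D10 in the conditions and was 0.53 lower with CD1530 at D10 (SE 0.22, adjusted p = 0.0454, and up to 0.236 without 1 library). Cdh26 was at or under 3 counts in every library at D6.25 and was at least 6.82-fold higher at D10 in CD1530 and at least 8.08-fold higher in AGN 193109 (floor of 3 counts per library). It was lower with CD1530 at D8.5 (-2.20, SE 0.53, adjusted p = 7.42e-04) on 6, 2 and 2 counts against 47, 9 and 13. The 47 counts come from the deepest library, and in CPM the values were 0.335, 0.106 and 0.118 against 1.27, 0.459 and 0.688.

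Non-clustered protocadherins summed to 53.4 ± 2.32 CPM in PM, 325.2 ± 6.45 CPM with CD1530 at D10 and 361.6 ± 9.18 CPM with AGN 193109. All 4 delta-1 genes were called lower with CD1530 at D8.5 (19.6% of all genes), the calls of Pcdh9 and Pcdh11x with the losses given below. Pcdh7 and Cdh1 were the 2 members called lower with CD1530 at all 5 times, Cdh1 with the losses at D6.25 given above. Pcdh7 had log2 fold changes of -0.30, -0.60, -0.45, -0.65 and -0.50 from D6.25 to D10 (SE 0.05 to 0.06). At D6.75 its libraries measured 51.0, 59.1 and 60.6 CPM with CD1530 and 86.3, 86.4 and 85.6 CPM with AGN 193109 (adjusted p = 8.74e-12), and the groups stood apart at each other time as well. Pcdh11x, an X-linked gene, rose from D6.25 to D10 in AGN 193109 (2.37, SE 0.28, adjusted p = 7.39e-10) and measured 2.81, 2.59 and 2.79 CPM there at D10, against 0.606, 0.385 and 1.07 CPM with CD1530 (-1.99, SE 0.27, adjusted p = 7.49e-08). It was already lower at D8.5 (-0.95, SE 0.30, adjusted p = 9.66e-03, or 0.0753 without CD1530 replicate 1). Pcdh1 was lower with CD1530 at D8.5 alone, with 36.6, 37.6 and 38.7 CPM against 51.9, 50.6 and 49.9 CPM (-0.43, SE 0.06, adjusted p = 6.19e-08), and by D10 it lay at 25.4 to 27.4 CPM in all 6 libraries. Pcdh9 was called at D8.5 (-0.32, SE 0.13, adjusted p = 0.0435), a call lost with library size alone (adjusted p = 0.0692) and without CD1530 replicate 1 (0.320), AGN 193109 replicate 2 (0.0826) or replicate 3 (0.132).

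The 5 delta-2 protocadherins, whose cytoplasmic tails bind the actin-regulating WAVE complex, had no common course. Their promoters are shown because the genes differed in response while sharing a sequence feature. Each run covers 250 bases before to 50 bases after the start of the gene (RefSeq, GRCm38.p6), read 5′ to 3′ on the gene's strand, with capitals marking ATTGG, the inverted CCAAT box.

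Pcdh8 (chr14:79771263-79771562, minus strand): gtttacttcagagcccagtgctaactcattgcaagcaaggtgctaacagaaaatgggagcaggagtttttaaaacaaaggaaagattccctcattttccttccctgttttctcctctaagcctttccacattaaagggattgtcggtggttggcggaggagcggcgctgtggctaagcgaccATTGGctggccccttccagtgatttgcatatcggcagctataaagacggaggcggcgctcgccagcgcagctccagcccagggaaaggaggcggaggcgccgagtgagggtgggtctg
Pcdh10 (chr3:45378148-45378447, plus strand): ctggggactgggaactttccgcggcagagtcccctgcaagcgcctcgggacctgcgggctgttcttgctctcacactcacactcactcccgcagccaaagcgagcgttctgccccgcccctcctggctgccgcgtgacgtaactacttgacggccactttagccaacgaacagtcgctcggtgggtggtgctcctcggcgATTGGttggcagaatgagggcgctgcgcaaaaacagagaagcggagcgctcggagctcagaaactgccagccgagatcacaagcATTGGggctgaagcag
Pcdh17 (chr14:84443313-84443612, plus strand): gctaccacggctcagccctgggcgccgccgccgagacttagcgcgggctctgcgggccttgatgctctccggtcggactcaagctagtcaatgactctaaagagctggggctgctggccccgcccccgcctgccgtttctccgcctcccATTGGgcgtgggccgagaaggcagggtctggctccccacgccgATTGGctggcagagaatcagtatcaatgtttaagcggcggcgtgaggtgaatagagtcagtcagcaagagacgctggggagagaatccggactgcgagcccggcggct
Pcdh18 (chr3:49757267-49757566, minus strand): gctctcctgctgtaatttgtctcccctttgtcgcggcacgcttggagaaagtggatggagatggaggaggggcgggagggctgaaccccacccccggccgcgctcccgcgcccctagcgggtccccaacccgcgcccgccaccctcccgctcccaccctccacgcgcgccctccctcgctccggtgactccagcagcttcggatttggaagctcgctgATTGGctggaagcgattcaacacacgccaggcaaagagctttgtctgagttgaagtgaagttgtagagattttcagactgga
Pcdh19 (chrX:133688944-133689243, minus strand): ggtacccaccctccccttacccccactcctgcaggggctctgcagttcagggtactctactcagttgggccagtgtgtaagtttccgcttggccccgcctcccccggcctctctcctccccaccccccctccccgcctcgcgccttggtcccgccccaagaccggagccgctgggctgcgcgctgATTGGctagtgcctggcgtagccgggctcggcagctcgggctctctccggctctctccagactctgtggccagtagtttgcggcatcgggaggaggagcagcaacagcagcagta

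The letters ATTGG occurred in this orientation in all 5, at 68 bases before the start in Pcdh8, 50 before and 34 after it in Pcdh10, 101 and 58 before it in Pcdh17, 32 in Pcdh18 and 65 in Pcdh19. Of 32851 mouse promoters of the same length, 22.1% held ATTGG as written and 37.4% held it on either strand. Among 20 promoters found for 19 of the 65 members, 14 held it on either strand. CAGGTG, an E-box, was in 2 of the 20 on either strand (20.2% of all promoters) and AGGTCA, a nuclear receptor half-site, in 1 (16.3%), and neither was in a delta-2 promoter. The motif was picked after these sequences were seen, and a match of letters is not evidence of binding.

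Pcdh8, the paraxial protocadherin, reversed between conditions. At D6.75 it measured 1.85, 1.96 and 2.05 CPM with CD1530 and 5.29, 5.10 and 4.69 CPM with AGN 193109 (-1.37, SE 0.19, adjusted p = 2.67e-07), and without the first of these libraries it was still called. At D10 the order was the opposite, with 2.12, 2.37 and 2.98 CPM with CD1530 and 0.688, 0.843 and 0.356 CPM with AGN 193109 (1.97, SE 0.28, adjusted p = 1.40e-07). The groups did not overlap at either time. Its interaction was called (adjusted p = 9.48e-10). The 6 paraxial mesoderm markers summed to 25.0 ± 1.32 CPM with CD1530 and 36.1 ± 0.215 CPM with AGN 193109 at D6.75, with 3 called lower (10.0% of all genes). At D10 they summed to 10.8 ± 1.23 and 32.5 ± 0.627 CPM, with 2 called higher and 1 lower (22.7% and 24.0% of all genes). The part of paraxial mesoderm cells in the Pcdh8 values was not tested.

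Pcdh18 was the most abundant protocadherin per kilobase at D10. PM held 12.01, 10.67 and 13.63 CPM of it, and at D8.5 the libraries measured 196.6, 196.2 and 191.1 CPM with CD1530 and 239.7, 216.5 and 228.8 CPM with AGN 193109 (-0.23, SE 0.05, adjusted p = 7.68e-04), and at D10 its difference of -0.14 (adjusted p = 0.0357) was lost without any 1 of 5 of the 6 libraries (adjusted p up to 0.105) and with library size alone (0.109). Pcdh17 rose by 2.89 and 3.00 on the log2 scale from D6.25 to D10 in CD1530 and AGN 193109, and was lower with CD1530 at D10, at 40.5, 34.1 and 40.8 CPM against 52.3, 54.3 and 46.5 CPM (-0.41, SE 0.12, adjusted p = 0.00807, or 0.0514 without CD1530 replicate 2). Pcdh19, which adheres together with N-cadherin, rose from PM to D6.25 by 1.78 and 1.73 on the log2 scale and again to D10 by 0.70 and 0.62, and was not called between conditions at any time. Without CD1530 replicate 1 at D6.75 it was called there (0.244, adjusted p = 0.00753), and with only the compared groups in the model it was called in the opposite direction at D8.5 (-0.174, adjusted p = 0.00591). Pcdh10 rose by 2.98 and 3.02 from PM to D6.25 and fell by 0.38 and 0.50 from there to D10, the fall in CD1530 being lost without any 1 of 3 libraries (adjusted p up to 0.0918), and its call at D7.5 (-0.61, SE 0.20, adjusted p = 0.0181) was lost without any 1 of 4 libraries (adjusted p up to 0.115).

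Pcdh12, the vascular endothelial protocadherin, had the largest rise of the non-clustered protocadherins at D6.25. It went from 0.239, 0.236 and 0.431 CPM in PM to 7.82, 10.98 and 9.16 CPM in CD1530 (4.95, SE 0.25, adjusted p = 5.88e-21) and to 9.20, 8.15 and 8.13 CPM in AGN 193109 (4.81, SE 0.25, adjusted p = 3.48e-20). It was higher with CD1530 at D6.75, at 10.5, 14.68 and 13.95 CPM against 7.71, 8.45 and 6.87 CPM (0.76, SE 0.12, adjusted p = 9.25e-06), and at D7.5 (0.70, SE 0.13, adjusted p = 3.44e-05). Of 7 endothelial markers, 6 were higher with CD1530 at both times, beside 7.94% and 15.2% of all genes. Their summed level was 387.9 ± 8.15 CPM against 226.4 ± 5.52 CPM at D6.75. The part of endothelial cells in the Pcdh12 values was not tested. Pcdh15, the partner of Cdh23 in tip links, was at 1.21, 1.27 and 1.41 CPM with CD1530 and 0.375, 0.783 and 0.772 CPM with AGN 193109 at D10 (0.99, SE 0.36, adjusted p = 0.0222, and up to 0.132 without 1 library).

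**Figure D3:**
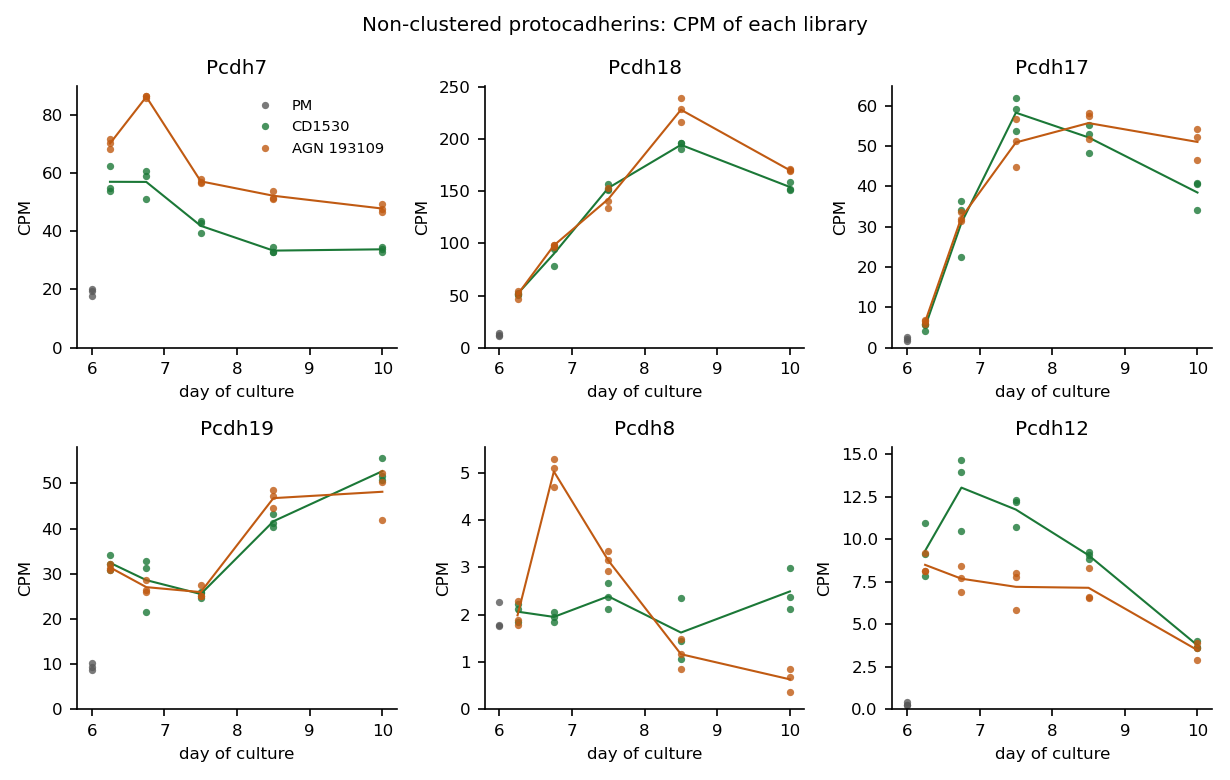
CPM (vertical axis, linear from 0) of non-clustered protocadherins against day of culture, 1 point per library and lines through the means of 3 libraries per group. The curves of Pcdh8 cross between D6.75 and D10, Pcdh7 stays lower with CD1530 at all 5 times, and Pcdh12 reaches its highest level, up to 14.7 CPM, with CD1530 at D6.75.

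The clustered protocadherins rose together after PM. The Pcdhb sum was 5.62 ± 0.442 CPM in PM, and at D6.25 it was 29.9 ± 1.95 CPM with CD1530 and 28.1 ± 1.20 CPM with AGN 193109, with 14 of 15 genes called higher in each condition. The Pcdhg sum was 43.9 ± 1.97 CPM in PM and 116.3 ± 6.48 and 116.7 ± 1.07 CPM at D6.25, with 20 and 19 of 21 genes called higher. From D6.25 to D10, 14 and 15 Pcdhb genes and 16 and 18 Pcdhg genes rose in CD1530 and AGN 193109. No clustered gene fell in any of these 4 comparisons. The median Pcdhb gene was at 0.278 CPM in PM, below the 0.611 CPM that the third-highest library of every gene reached. Genes that scarce in PM could enter the table only through later groups, so their lack of falls from PM was set by the filter. Of all genes, 34.5% and 35.0% rose and 33.3% and 33.1% fell from PM to D6.25 in CD1530 and AGN 193109. From D6.25 to D10, 37.2% and 36.0% of all genes rose and 38.2% and 38.6% fell. No clustered gene was called between conditions at D6.25, where only 1.23% of all genes were called higher and 0.695% lower.

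At D10 the Pcdhb cluster was lower with CD1530, whereas the Pcdhg cluster was mixed, as given below. The Pcdhb sum was 59.7, 62.5 and 60.4 CPM with CD1530 and 78.3, 84.1 and 80.2 CPM with AGN 193109, every library of the first group below every library of the second. All 15 genes had log2 fold changes under 0, from -0.96 to -0.17 with a median of -0.49, and 8 were called lower (24.0% of all genes). Pcdhb18, at 2.73, 2.15 and 2.25 CPM against 4.31, 4.21 and 4.87 CPM (-0.91, SE 0.18, adjusted p = 5.95e-05), and Pcdhb20, at 2.88, 3.63 and 3.20 CPM against 5.88, 4.82 and 5.76 CPM (-0.76, SE 0.18, adjusted p = 6.30e-04), kept their calls without any 1 library, whereas Pcdhb2, Pcdhb7, Pcdhb13, Pcdhb14, Pcdhb15 and Pcdhb19 each lost theirs without at least 1 library (adjusted p up to 0.128). Pcdhb22, with the most counts of the cluster over all libraries, measured 10.96, 13.37 and 12.87 CPM against 14.38, 13.73 and 15.45 CPM and was not called, although it was with only the compared groups in the model (adjusted p = 0.0483). Pcdhb17, at 8.81 against 10.5 CPM in the mean, was not called either (adjusted p = 0.0791, or 0.0381 without AGN 193109 replicate 1). At D8.5, Pcdhb16, Pcdhb17 and Pcdhb19 were lower with CD1530 by 0.53 to 0.54 on the log2 scale, and of the Pcdhg genes Pcdhga5 was lower there by 0.47.

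The Pcdhg sum did not separate the conditions at D10, at 247.9, 232.6 and 237.0 CPM with CD1530 and 247.3, 243.6 and 236.2 CPM with AGN 193109. Among its 21 genes, 17 had log2 fold changes under 0 (median -0.25). With CD1530, 4 were called higher and 7 lower, beside 22.7% and 24.0% of all genes. Pcdhgc3, a C-type gene at the 3′ end of the cluster, supplied 53.1% ± 1.70 of the Pcdhg counts in PM and 44.4% ± 0.616 with CD1530 and 38.1% ± 1.30 with AGN 193109 at D10 (SD, n = 3). It measured 108.8, 103.1 and 106.9 CPM with CD1530 and 91.6, 92.0 and 93.5 CPM with AGN 193109 (0.20, SE 0.06, adjusted p = 3.05e-03). Pcdhgc5, another C-type gene, was at 11.01, 11.61 and 10.17 CPM against 7.07, 7.41 and 6.83 CPM (0.62, SE 0.14, adjusted p = 3.11e-04). Its difference at D6.75 was the opposite (-0.65, SE 0.16, adjusted p = 0.002), a call lost without CD1530 replicate 1 (adjusted p = 0.0516), as was that of Pcdhgc4 there (adjusted p = 0.160). Pcdhga12 (0.40, SE 0.13, adjusted p = 0.0121) and Pcdhgb4 (0.48, SE 0.20, adjusted p = 0.0454) were the other genes higher with CD1530, and both calls were lost without CD1530 replicate 1 (adjusted p = 0.140 and 0.196). The call of Pcdhgb4 was also lost without any 1 of 3 other libraries (up to 0.192), with DESeq2 (0.0614), with its size factors (0.0547) and with the replicate block (0.0512). The 7 lower genes were Pcdhga2, Pcdhga3, Pcdhga5, Pcdhga6, Pcdhga9, Pcdhgb2 and Pcdhgb6, led by Pcdhga2 at 4.96 against 7.83 CPM (-0.65, SE 0.14, adjusted p = 1.25e-04), while Pcdhgb6, the second most abundant gene of the cluster, differed by -0.25 (SE 0.08, adjusted p = 0.0117, or 0.0835 without CD1530 replicate 2 and 0.0629 without AGN 193109 replicate 1). The calls of Pcdhga6 and Pcdhgb2 were lost with library size alone (adjusted p = 0.0634 and 0.0563) and without any 1 of 4 libraries (up to 0.210 and 0.231), and that of Pcdhgb2 also with only the compared groups in the model (0.0516). Pcdhga7, the next most abundant, stood at 12.5 against 14.9 CPM in the mean and was not called (adjusted p = 0.0762, or 0.0205 with only the compared groups in the model).

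**Figure D4:**
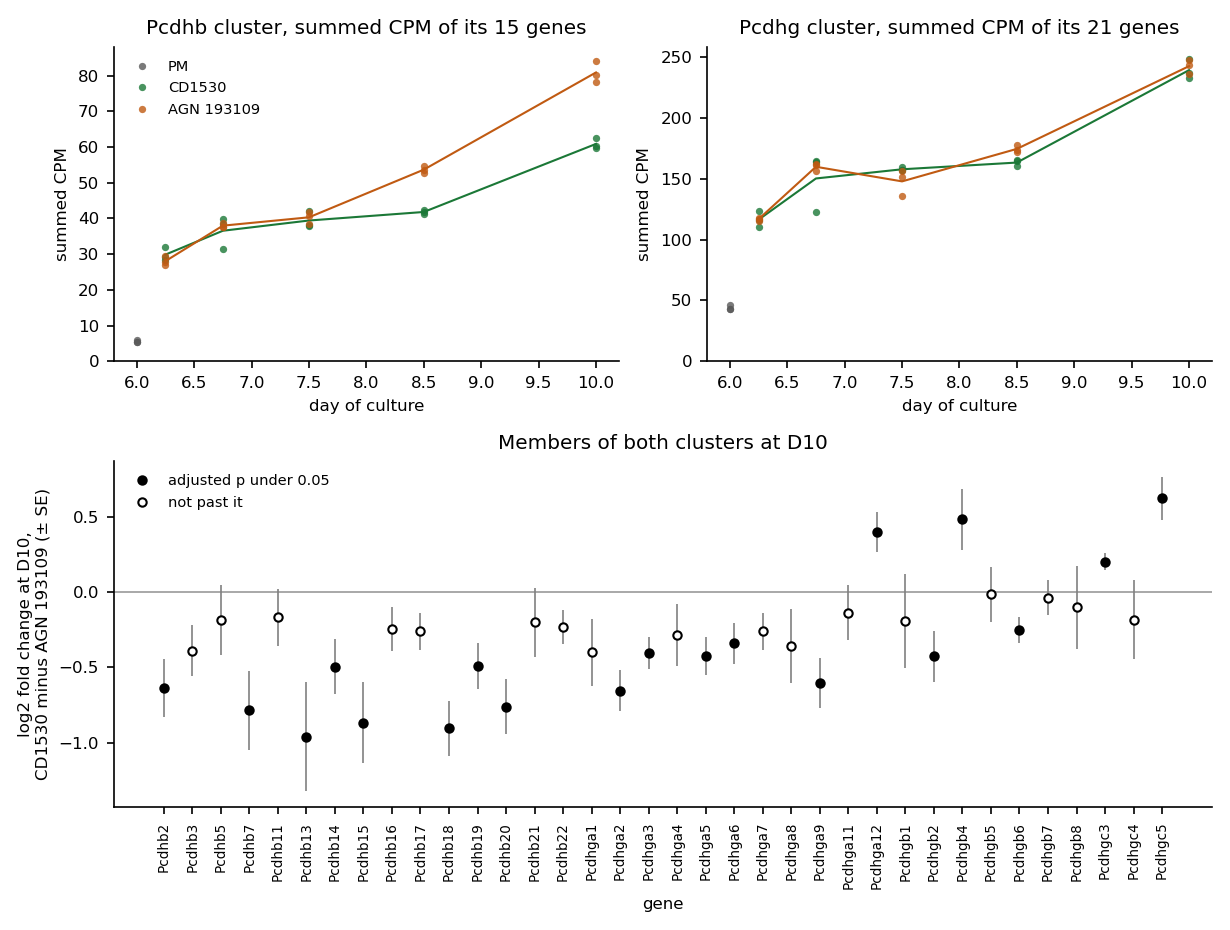
Summed CPM of the Pcdhb and Pcdhg clusters against day of culture, 1 point per library, and the log2 fold change of CD1530 minus AGN 193109 at D10 with its SE for each gene of both clusters in order of name, filled where the adjusted p was under 0.05. All 15 Pcdhb genes lie below 0, and of the 21 Pcdhg genes 17 lie below 0 and 4 above, from -0.65 to 0.62.

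Other genes of the same machinery were counted from lists chosen with earlier results of these data known. Of 15 catenins and adherens junction partners, 7 were higher and 3 lower with CD1530 at D10, with a median log2 fold change of 0.06 beside -0.02 over all genes. For this and the following lists the shares of all genes called at D10 are again 22.7% higher and 24.0% lower. Nectin2, an immunoglobulin-like adhesion protein of the junction, was at 213.8 against 131.1 CPM (0.71, SE 0.04, adjusted p = 8.42e-19), and Jup, plakoglobin, at 447.7 against 299.2 CPM (0.58, SE 0.03, adjusted p = 2.35e-19), while Ctnnb1, β-catenin, was at 1552 against 1980 CPM (-0.35, SE 0.03, adjusted p = 2.52e-13). Ctnna1, α-catenin, differed by 0.13 (SE 0.03, adjusted p = 1.76e-03). The other called partners moved less than 0.40 on the log2 scale. Plekha7, Vcl (vinculin), Ctnnd2 and Lima1 were higher by 0.39, 0.27, 0.39 and 0.12, and Nectin3 and Pkp4 were lower by 0.26 and 0.21. All 6 transcription factors of epithelial-mesenchymal transition were called at D10, 4 higher and 2 lower (median 0.19). Snai1, a repressor of E-cadherin, was at 20.8 CPM with CD1530 and 56.0 CPM with AGN 193109 (-1.43, SE 0.06, adjusted p = 1.02e-23), so both it and Cdh1 were lower with CD1530, and Zeb2, another such repressor, was at 42.3 against 27.5 CPM (0.62, SE 0.07, adjusted p = 2.35e-09). Zeb1 was at 113.4 against 97.9 CPM (0.21, SE 0.06, adjusted p = 6.79e-03). The calls of Snai2 (0.25), Twist1 (0.17) and Twist2 (-0.36) were lost without 1 library, with adjusted p up to 0.27.

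Among 14 other members of the cadherin superfamily, 6 were higher and 6 lower with CD1530 at D10 (median -0.0008). Fat4 and Dchs2 belong to the FAT and dachsous cadherins of planar polarity, and stood at 135.7 against 313.8 CPM (-1.21, SE 0.15, adjusted p = 4.66e-07) and at 7.995 against 2.12 CPM (1.91, SE 0.23, adjusted p = 3.20e-09). Clstn2, a calsyntenin, was at 12.8 against 97.9 CPM (-2.93, SE 0.09, adjusted p = 5.87e-27) and Ret, a receptor kinase with cadherin domains, at 12.3 against 2.69 CPM (2.19, SE 0.15, adjusted p = 3.55e-16). Of 11 regulators of clustered protocadherin promoter choice, none was higher and 5 were lower with CD1530 at D10 (median -0.08). Dnmt3b, the DNA methyltransferase that silences these promoters, was at 31.2 against 352.7 CPM (-3.50, SE 0.05, adjusted p = 1.48e-40), and the cohesin subunit Rad21 at 274.7 against 326.9 CPM (-0.25, SE 0.03, adjusted p = 2.08e-08), whereas Ctcf was at 138.1 against 135.7 CPM (0.03, SE 0.05, adjusted p = 0.681) with overlapping libraries.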

How the data were processed

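RNA from 33 mouse cultures was sequenced as paired-end libraries. Per the labels and the study's methods, the authors aligned reads with STAR to GRCm38 and counted them per gene with featureCounts, and they deposited 1 table of raw counts without normalization. The annotation release, the use of strand and the treatment of reads shared between genes are not given in the sources used here. Genes of low count were absent from it, since the third-highest library of every gene reached 0.611 CPM or more. All 33 columns were matched to their samples by name.

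All 17120 genes were fitted together in edgeR 4.0.16 (R 4.3.3, limma 3.58.1) with TMM scaling, 1 mean per group and the robust quasi-likelihood F test. Genes were called at a Benjamini-Hochberg adjusted p under 0.05 over all 17120 genes, in 10 comparisons including the interaction of condition with time (4 degrees of freedom). Standard errors are the log2 fold change divided by the square root of F. Groups at or under 3 counts in all 3 libraries were treated as being at the floor. The fit was also run on counts simulated from its own group means and dispersions, with an outcome not given here. Replicates correlated at 0.993 to 0.998 over log values, no 2 columns were identical, and the common biological coefficient of variation was 4.68%. Depth per library was 17116084 to 38120841 counts. Comparisons that share the PM or D6.25 libraries are not independent. Tables were handled in Python 3.11.15.

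Alternatives were DESeq2 1.42.0, its size factors, library size only, a filter of 1 CPM in 3 libraries, no filter, the compared groups alone, the replicate number as a block, and each library left out. The members and gene lists were chosen with earlier results of these data known. Genes were named if they were Cdh or non-clustered Pcdh genes reaching a group mean of 10 CPM, were among the 5 largest called changes in either direction at D8.5 or D10 with a mean of 50 counts, were the 3 most abundant of a cluster, had a known role (Cdh1, Cdh2, Cdh3, Cdh11, Cdh15, Pcdh8, Pcdh19), or were junction partners or EMT factors called at D10. Other genes were named after their values were seen. Markers of epithelial, neural, endothelial, pluripotent, paraxial mesoderm, endoderm, muscle, tendon and cartilage cells were summed.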

Additional observations from a re-analysis of the deposited data

Results flagged for a closer look

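For 26 members the gap of CD1530 over AGN 193109 changed across the 5 times, by the interaction of condition with time in the edgeR quasi-likelihood fit (Benjamini-Hochberg adjusted p over 17120 genes). This is 40.0% of the members, below the 48.8% of all genes so called. Among the type I cadherins the adjusted p was 1.17e-17 for Cdh1, 8.49e-14 for Cdh3, 1.18e-09 for Cdh2, 1.02e-08 for Cdh4 and 0.00088 for Cdh15. Among the type II cadherins it was 2.29e-09 for Cdh24, 2.08e-08 for Cdh11, 3.58e-08 for Cdh10 and 0.0181 for Cdh8, and it was 2e-06 for Cdh13. Of the non-clustered protocadherins, Pcdh8 gave 9.48e-10, Pcdh11x 2.25e-05, Pcdh1 5.28e-05, Pcdh7 0.00206, Pcdh18 0.00399, Pcdh12 0.00613 and Pcdh17 0.0472.

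Of the Pcdhb genes, Pcdhb18 gave 0.00763, Pcdhb20 0.0201, Pcdhb15 0.0233, Pcdhb16 0.0256 and Pcdhb14 0.0336, and of the Pcdhg genes, Pcdhgc5 gave 7.38e-05, Pcdhga3 0.00211, Pcdhgc3 0.0303 and Pcdhga5 0.0367. Without CD1530 replicate 1 at D6.75, 36 members were called, 26 of them shared with the fit of all libraries, and without CD1530 replicate 1 at D10, 21 were called, 20 of them shared. The call of Cdh8 was lost without that library or AGN 193109 replicate 2 at D10 (adjusted p up to 0.0828). Groups of 3 libraries were too small for a test of single libraries.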

How the results depend on the processing

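Over the 10 comparisons 325 member calls were made. Of these, 275 were kept in every alternative that tested them and 301 in every such alternative other than leaving out a library, and 0 changed direction. Calls that an alternative did not test were not counted as lost. There were 12 of them with the compared groups alone and 7 with the filter of 1 CPM in 3 libraries. At D6.25, 3 members were called, and 1 to 3 with 1 library left out (1 without AGN replicate 2). At D6.75, 5 members were called in place of 10 with only the compared groups in the model, where 1236 genes in place of 3076 were called in all, and at D6.25 it called 804 in place of 329, against 196 to 276 with 1 library left out. At D10 the counts of members ran from 32 to 37 over the settings and from 27 to 32 with 1 library left out, and at D8.5 library size alone gave 1 higher and 16 lower. Library size alone lost 16 member calls, DESeq2 5, its size factors 3 and the compared groups alone 8.

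With library size alone the summed CPM at D10, with CD1530 and AGN 193109 in turn, was 230.3 and 324.6 for type I cadherins, 1207 and 1295 for type II, 302.4 and 327.7 for non-clustered protocadherins, 56.6 and 73.29 for Pcdhb and 222.4 and 219.7 for Pcdhg, the last pair in the opposite order to TMM. With DESeq2 size factors the type II sum in AGN 193109 was 1456.

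The replicate block gave 35 called members at D10 in place of 36 (Pcdhgb4 lost, adjusted p = 0.0512) and gained 2 calls elsewhere. Same-numbered libraries were not paired: their deviations correlated at -0.292 to 0.235, with 6 of 165 pairs over 0.1, and 11 of 33 libraries correlated best with their own number. Depth limits scarce members such as Cdh8, Cdh9, Cdh20 and Cdh26, whose calls rest on few counts per library.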

Other observations

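The cultures also differed in markers of cells outside the cadherin lists. At D10 the cartilage markers summed to 242.4 ± 2.92 CPM with CD1530 and 3235 ± 78.1 CPM with AGN 193109 (SD, n = 3), and all 6 were called lower with CD1530. For this and the following markers the shares of all genes called were 22.7% higher and 24.0% lower. The tendon markers summed to 17490 ± 341 and 20410 ± 683 CPM, with 1 called higher and 3 lower of 6. Endoderm markers summed to 88.9 ± 1.89 and 33.2 ± 1.41 CPM, with 3 called higher and 1 lower of 6. Muscle markers, which go with M-cadherin, summed to 8.64 ± 1.32 and 8.34 ± 0.638 CPM, with 1 called higher and 2 lower of 5. Their part in the cadherin values was not tested.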
